A study of Drosophila melanogaster with 12 samples.

Results

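The genes described here are 10 small secreted effectors of the fly's Toll immune pathway, 8 Bomanins and the 2 Daisho genes, in heads of adult Drosophila melanogaster. They were taken from the deposited count table by gene symbol: BomS1, BomS2, BomS3 and BomS5 (short Bomanins), BomT2 (a tailed Bomanin), BomBc1, BomBc2 and BomBc3 (bicipital Bomanins), and Dso1 and Dso2. They are 10 of 24228 features in the table, of which 17856 carry a gene identifier and 10238 had enough reads to be tested. All 10 were among those tested.

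Every fly was of the wild-type strain ORE-R, with no transgene or mutation named in the labels. Young males and females first lived together for 3 to 5 days. For the next 7 days they were kept either alone (isolated) or in same-sex groups of 25 (group-housed, the control), which gives 4 groups of sex and housing with 3 libraries each. Each library was made from polyA RNA of 200 pooled whole heads, and batch 1 holds replicate 0 of each group while batch 2 holds the other two, per the labels. Whether the pools stem from separate cultures is not stated, so p-values reflect only the variation among these libraries, part of which may be technical.

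The Toll pathway is a main defence of flies against fungi and many Gram-positive bacteria. Recognition proteins start a protease cascade in the haemolymph, the cascade cleaves the ligand Spaetzle, and Spaetzle activates the receptor Toll, which brings NF-kappaB factors into the nucleus. Fat body cells then secrete peptides in large amounts, the Bomanins and Daisho peptides among them. Flies that lack most Bomanins are highly sensitive to infection, and flies without the Daisho genes are sensitive to some filamentous fungi. Short Bomanins consist of little beyond a conserved motif, tailed Bomanins carry a tail behind it, and bicipital Bomanins carry the motif at both ends of a linker.

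After 7 days of isolation, female heads held more mRNA of both Daisho genes and of BomBc1, and no gene of the 10 passed the test in males. The short and tailed Bomanins, which lie in the same gene cluster as BomBc1, did not pass in either sex, and most of their values pointed down. Dso1 was the member whose female response also exceeded the male response by a test of that difference. The plot of all 10 genes by library shows these patterns. Levels of single genes are CPM, reads of a gene relative to the library's reads, on library sizes scaled by the TMM method. Differences are log2 fold changes with their standard error (SE) from edgeR's quasi-likelihood test, adjusted by the Benjamini-Hochberg method over the 10238 features and called at an adjusted p under 0.05.

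**Figure D1:**
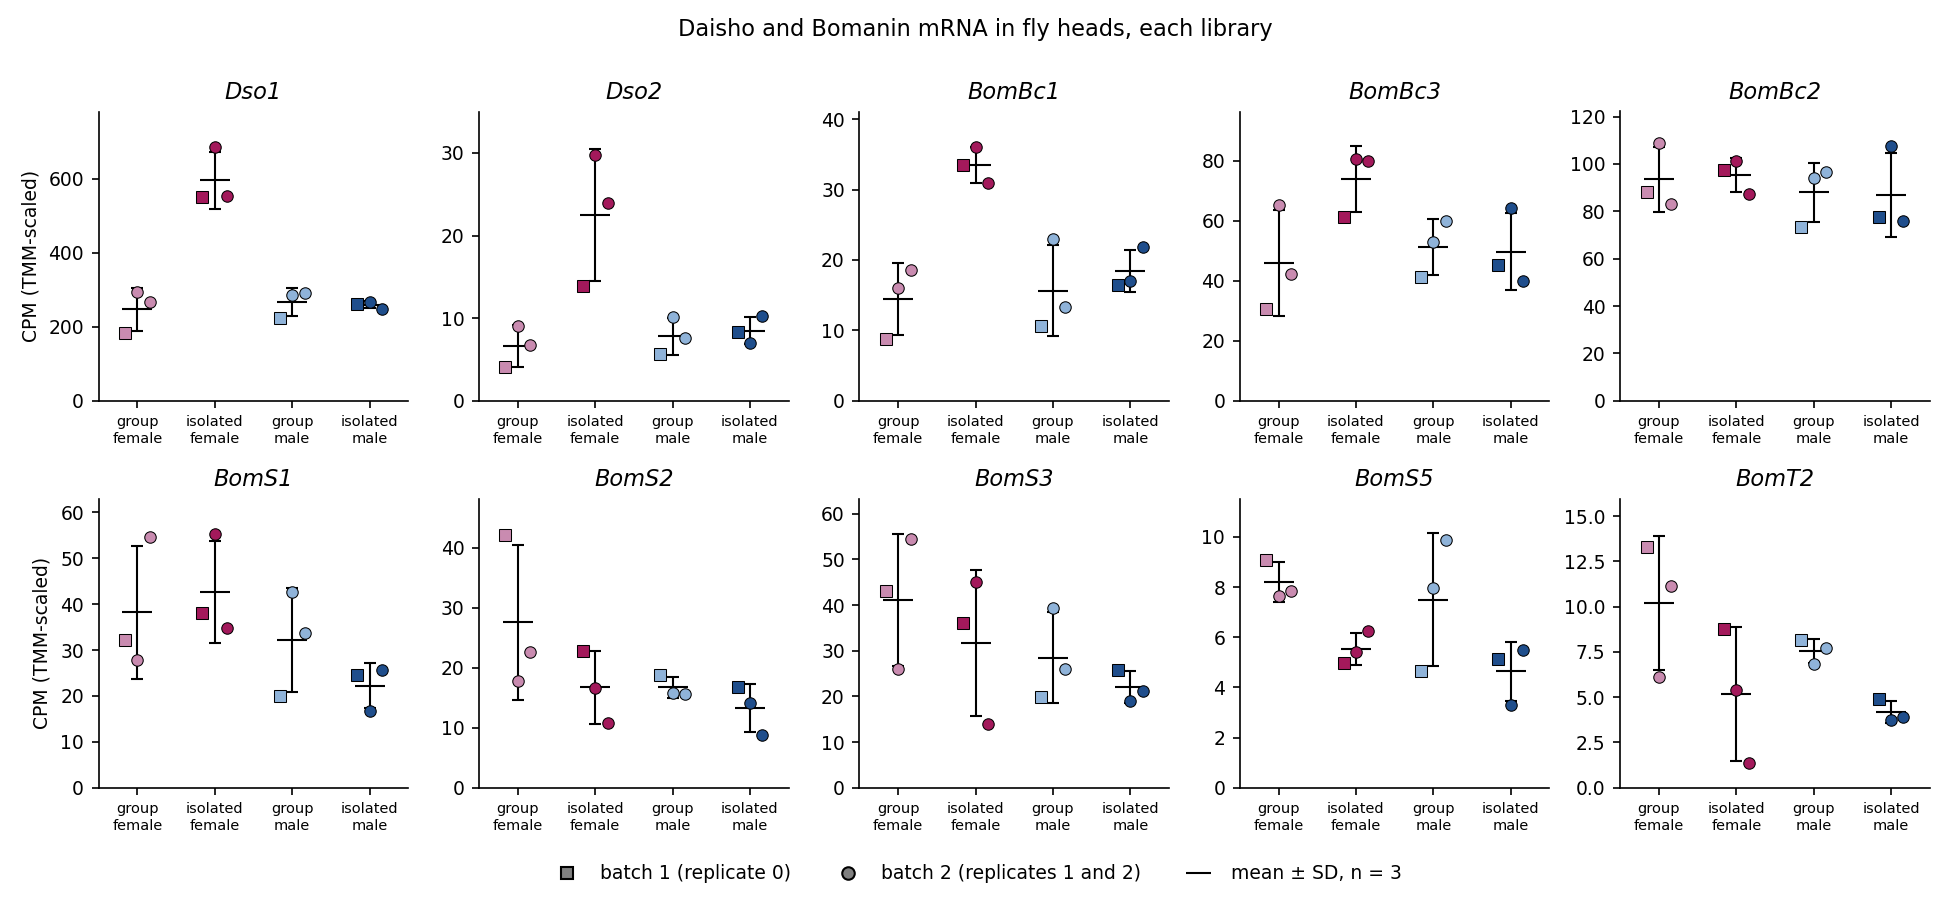
Level of each gene in each of the 12 libraries, in CPM on a linear axis that starts at 0, by group. Squares are batch 1, circles are batch 2, and bars give the mean and SD of 3 libraries. Dso1, Dso2 and BomBc1 lie higher in all 3 isolated female libraries than in every other library, while BomS5 lies lower in the 3 isolated female libraries than in the 3 group-housed female ones.

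The libraries differed in depth, with totals over features of 2584050 to 17122099 counts. The shallowest were isolated female replicates 1 and 2, with 2584050 and 3224485 counts, and the column of isolated male replicate 1 is marked as merged in the file. Markers of neurons, photoreceptors and glia were present in every library, with summed levels of 14330 to 18201 CPM of library totals over 13 genes, and none of the 13 passed the test in either sex. Fat body markers, 19 genes, summed to 30188 to 38002 CPM of library totals in group-housed females and to 57688 to 72308 in isolated females. In males the same sum was 15184 to 19795 under group housing and 16022 to 19641 under isolation. The list includes the yolk protein genes Yp1, Yp2 and Yp3, so its sums do not compare fat body between the sexes. Yp1 alone stood at 3467 to 18719 CPM in female libraries and at 138 to 558 CPM in male libraries.

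Dso1 (FBgn0040653) encodes the first Daisho peptide. In the BDGP6.54 annotation its gene spans 20868496 to 20869321 of arm 2R, minus strand, with 2 exons and 767 exon bases. The release used for the counts may differ. In group-housed females Dso1 stood at 183, 294 and 267 CPM in replicates 0, 1 and 2. In isolated females it stood at 551, 686 and 554 CPM. Every isolated female library lay above every group-housed one, and the 2 ranges were far apart. This was a 2.44-fold rise, or 1.29 in log2 units (SE 0.16, edgeR adjusted p = 9.73e-05), with the isolated library higher in 9 of 9 pairs of libraries. Male heads held 224, 287 and 290 CPM under group housing and 262, 267 and 249 CPM under isolation. These male ranges overlapped, and all 6 male libraries lay within the span of the group-housed females. The male difference was −0.03 (SE 0.15, edgeR adjusted p = 1.00, 95% interval −0.35 to 0.30).

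Dso2 (FBgn0067905), the second Daisho gene, starts on the opposite strand of 2R at 20870392 and ends at 20870678, with 1070 bases between the pair. It was expressed at a far lower level. Group-housed female libraries held 4.06, 9.06 and 6.81 CPM. Isolated female libraries held 13.9, 29.7 and 24.0 CPM. Again the groups did not overlap, although the isolated batch 1 library was well below the other two. This rise was 3.37-fold, or 1.75 in log2 units (SE 0.30, edgeR adjusted p = 0.00210). Both Daisho calls held in 12 of 12 fits with 1 library left out, with edgeR adjusted p up to 0.00222 for Dso1 and 0.0327 for Dso2. In males the values were 5.69, 10.1 and 7.59 CPM under group housing and 8.32, 6.95 and 10.2 CPM under isolation, so the groups overlapped. The difference in males was 0.17 (SE 0.29, edgeR adjusted p = 1.00, 95% interval −0.44 to 0.78).

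Per kilobase of annotated exon, the Daisho genes were not alike in level. Exon lengths of the 10 ran from 218 bases for BomS5 to 1301 for BomBc3, and no correction was made for the length of sequenced fragments. Dso1 had 323 ± 75.9 CPM per kb (SD, n = 3) in group-housed females and 778 ± 101 in isolated females. Dso2 had 29.8 ± 11.2 and 101 ± 35.8 CPM per kb in the same groups. Dso1 was the most abundant of the 10 genes per kilobase in all 4 groups. BomBc2 followed, at 122 to 134 CPM per kb over the 4 group means, and BomT2 was the lowest in each group, at 10.9 to 26.6. Dso2 lay next to the lowest in group-housed females. In isolated females it was the fourth, close below BomS1 at 118 ± 30.7 CPM per kb, a gap smaller than their spread.

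BomBc1 (FBgn0034328) is a bicipital Bomanin whose gene spans 18382704 to 18383235 on the minus strand of 2R. It was the Bomanin that rose in isolated females. Group-housed females had 8.79, 16.0 and 18.6 CPM, and isolated females had 33.4, 36.0 and 30.9 CPM. The isolated libraries sat close together and well above the group-housed ones. They differed 2.47-fold, or 1.31 in log2 units (SE 0.26, edgeR adjusted p = 0.00681). The call was lost for BomBc1 when either replicate 0 was left out, at 1.07 with an edgeR adjusted p of 0.101 when that was the group-housed one, the lowest library, and at 1.06 with 0.0807 when it was the isolated one. The values for males were 10.7, 22.9 and 13.3 CPM under group housing and 16.4, 17.1 and 21.8 CPM under isolation. They overlapped, with a difference of 0.28 (SE 0.25, edgeR adjusted p = 1.00).

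The other bicipital Bomanins did not pass. BomBc3 (FBgn0040582), whose gene spans 22087075 to 22088501 of arm 3R, held 30.5, 65.1 and 42.3 CPM in group-housed and 61.3, 80.5 and 79.9 CPM in isolated females. Group-housed replicate 1 exceeded isolated replicate 0, and the isolated library was the higher one in 8 of 9 pairs. Its log2 fold change of 0.71 (SE 0.20) missed the threshold with an edgeR adjusted p of 0.0605. DESeq2 gave BomBc3 an adjusted p of 0.0326 and limma-voom 0.0318, and edgeR gave 0.00654 without group-housed female replicate 1 and 0.0270 without isolated male replicate 2, so its call depended on the method and on single libraries. BomBc2 (FBgn0034331) was the steadiest of the 10, with a ratio of 1.48 between its highest and lowest library. Its difference was 0.03 (SE 0.16, 95% interval −0.30 to 0.37, edgeR adjusted p = 0.955) in females and −0.01 (SE 0.15) in males. Library totals in place of TMM turned the sign of BomBc2 in females to −0.19 and in males to 0.04. In the annotation BomBc2 shares 88 exon bases with BomS4 on the other strand, and no source used here says whether the counting used strand, so reads there cannot be told apart.

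**Figure D2:**
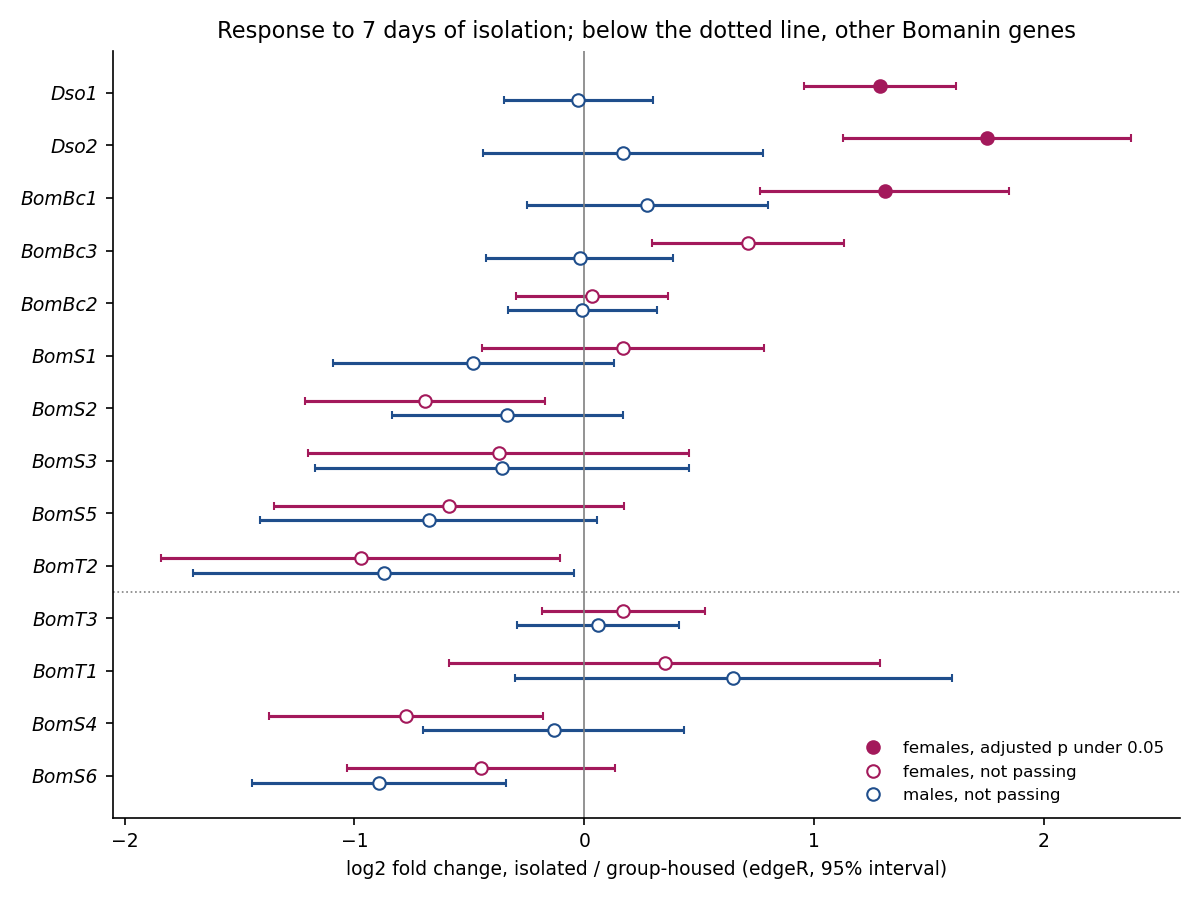
Log2 fold change, isolated against group-housed, of each gene in females and males with its 95% interval from edgeR, on a linear log2 axis; filled points passed an adjusted p of 0.05. Dso1, Dso2 and BomBc1 in females are the filled points, at 1.29, 1.75 and 1.31, and the 4 genes below the dotted line are the other Bomanins of the table.

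Short Bomanins gave no call in females. BomS1 (FBgn0034329) had a difference of 0.17 (SE 0.29, edgeR adjusted p = 0.853), which became −0.02 with library totals in place of TMM, with 27.8 to 54.7 CPM in group-housed and 34.7 to 55.3 CPM in isolated females. The ranges almost coincided. BomS2 (FBgn0025583) stood at 42.2, 17.8 and 22.7 CPM in group-housed and 22.9, 16.6 and 10.8 CPM in isolated females. Its difference was −0.69 (SE 0.25, unadjusted p = 0.0126, edgeR adjusted p = 0.180), and the groups overlapped. BomS3 (FBgn0040736) ranged from 25.9 to 54.5 CPM in group-housed and from 13.9 to 45.0 CPM in isolated females, a difference of −0.37 (SE 0.38, edgeR adjusted p = 0.734). These libraries scattered so widely that the 95% interval ran from −1.20 to 0.46. BomS5 (FBgn0040734), at low counts, had 9.10, 7.65 and 7.84 CPM in group-housed and 4.96, 5.40 and 6.25 CPM in isolated females. Its female groups did not overlap, yet the difference of −0.59 (SE 0.36) had an edgeR adjusted p of 0.503.

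BomT2 (FBgn0040735), the tailed Bomanin, had the lowest mean of the 10 per kilobase of exon in every group. In group-housed females it had 13.3, 6.09 and 11.1 CPM and in isolated females 8.74, 5.40 and 1.39 CPM. The last of these rests on 4 reads, and the groups overlapped. The difference was −0.97 (SE 0.41, unadjusted p = 0.0303, edgeR adjusted p = 0.279). Males had 8.14, 6.81 and 7.72 CPM under group housing and 4.89, 3.72 and 3.93 CPM under isolation. Here every isolated library lay below every group-housed one. The male difference was −0.87 (SE 0.39, unadjusted p = 0.0401, edgeR adjusted p = 1.00).

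Among the 10 genes in females, 3 were called higher, and over all features tested 3.26% were. None was called lower, against 0.215% of all features. At an unadjusted p under 0.05, 4 of the 10 were higher, where 8.73% of all features were, and 2 were lower, BomS2 and BomT2, where 5.57% were. The female groups did not overlap for Dso1, Dso2 and BomBc1, upwards, and for BomS5, downwards. Of all features, 9.23% did not overlap upwards and 7.06% downwards. The median log2 fold change of the 10 was 0.10, beside −0.02 over all features, with 6 positive and 4 negative values, of which BomBc2 and BomS1 turned negative with library totals. That median hides a spread from −0.97 for BomT2 to 1.75 for Dso2. DESeq2 and limma-voom each called 4 of the 10, and all were higher.

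In males 0 of the 10 passed with edgeR, DESeq2 or limma-voom, and 0.0781% of all features passed in either direction with edgeR. One gene, BomT2, had an unadjusted p under 0.05, as did 2.66% of all features. BomT2 was also the only gene of the 10 with male groups that did not overlap downwards, which 2.46% of all features did. Short Bomanins in males had differences of −0.48 (SE 0.29) for BomS1, −0.33 (SE 0.24) for BomS2, −0.36 (SE 0.38) for BomS3 and −0.68 (SE 0.35) for BomS5. BomBc3 had −0.02 (SE 0.19). The median of the 10 was −0.18, with 2 positive and 8 negative values, of which BomBc2, BomBc3 and Dso1 turned positive with library totals.

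The female and male responses were then compared directly. Dso1's female response exceeded its male response by 1.31 log2 units (SE 0.22, edgeR adjusted p = 0.00679), the 1 call among the 10, where 0.430% of all features were called higher in females. For Dso2 the gap was 1.58 (SE 0.41, edgeR adjusted p = 0.136, 95% interval 0.71 to 2.46), and it did not pass. BomBc1 had 1.03 (SE 0.35, edgeR adjusted p = 0.395) and BomBc3 0.73 (SE 0.27, edgeR adjusted p = 0.510). Among the short Bomanins, BomS1 had 0.65 (SE 0.40, edgeR adjusted p = 0.852) and BomS2 −0.36 (SE 0.34, edgeR adjusted p = 0.917). The calls in females alone therefore do not show that Dso2 or BomBc1 responded differently in males. With library totals in place of TMM, the call for Dso1 was lost, at 1.06 with an edgeR adjusted p of 0.0651. It was lost too with batch 2 alone, at 1.28 with 0.259, and with isolated female replicate 0 as the only isolated female library, at 1.37 with 0.125.

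Averaged over the sexes, the same 3 genes were called higher under isolation, against 2.08% of all features. Dso1 had 0.63 (SE 0.11, edgeR adjusted p = 0.00389), Dso2 0.96 (SE 0.21, edgeR adjusted p = 0.0181) and BomBc1 0.79 (SE 0.18, edgeR adjusted p = 0.0258). BomT2 had −0.92 (SE 0.28, edgeR adjusted p = 0.139). It passed as lower with DESeq2 (adjusted p = 0.0283) and with edgeR without the filter on low counts (adjusted p = 0.0423). For Dso1, the average mixes a female rise with a male value near 0. Leaving out 1 library at a time kept the call for Dso1 in 12 of 12 fits. Dso2 lost it without group-housed female replicate 0 (edgeR adjusted p = 0.0893), isolated female replicate 1 (0.0681), group-housed male replicate 0 (0.0629) or 2 (0.0674), or isolated male replicate 0 (0.0874). BomBc1 lost it without those 5 libraries (0.125, 0.0638, 0.116, 0.0848 and 0.0847, in that order), isolated female replicate 0 (0.113) or isolated male replicate 2 (0.0625).

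The sexes were also compared within each housing. Under group housing 0 of the 10 differed with edgeR, where 2.73% of all features passed in either direction. BomS2 alone had an unadjusted p under 0.05, as did 12.5% of all features, and its female minus male difference was 0.65 (SE 0.24, edgeR adjusted p = 0.214). limma-voom called BomS2 at an adjusted p of 0.0246. Dso2 had −0.26 (SE 0.29, edgeR adjusted p = 0.792). Under isolation all 10 values were higher in females in the edgeR fit with TMM, though BomBc2 turned with library totals and BomT2 with batch 2 alone. The threshold was passed by 2, against 3.60% of all features called higher. Those were Dso1 at 1.19 (SE 0.16, edgeR adjusted p = 0.000188) and Dso2 at 1.32 (SE 0.29, edgeR adjusted p = 0.0136).

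BomBc1, at 0.90 (SE 0.25, edgeR adjusted p = 0.0546), and BomS1, at 0.92 (SE 0.29, edgeR adjusted p = 0.0999), missed the threshold between isolated females and isolated males. BomBc3 had 0.55 (SE 0.19, edgeR adjusted p = 0.148). The isolated female and isolated male libraries did not overlap for BomS1, BomBc1, Dso1 and Dso2, and 11.9% of all features did not overlap in that direction. BomBc2, at 0.14 (SE 0.16), turned to −0.08 with library totals, and BomT2, at 0.29 (SE 0.42), turned to −0.22 without isolated female replicate 0. The call for Dso2 was lost without isolated female replicate 1 (edgeR adjusted p = 0.0878), isolated male replicate 1 (0.0634) or isolated male replicate 2 (0.0567). BomBc1 came to pass without group-housed female replicate 1 (0.0464) or 2 (0.0287) or group-housed male replicate 1 (0.0447), and BomS1 without group-housed female replicate 1 (0.0465) or 2 (0.0457).

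Each batch was also read on its own, as a difference of mean log2 CPM. In females Dso1 differed by 1.59 in batch 1 and 1.14 in batch 2, Dso2 by 1.72 and 1.74, and BomBc1 by 1.90 and 0.94. BomBc3 was higher in both as well, at 1.00 and 0.61. The short and tailed Bomanins kept their sign too, with BomS2 at −0.88 and −0.58, BomS3 at −0.25 and −0.58, BomS5 at −0.85 and −0.40, and BomT2 at −0.60 and −1.49. In all, 5 genes were positive and 4 negative in both batches, and BomBc2, at 0.14 and −0.02, was not of 1 sign. Batch 1 has 1 library per group, so it gives no test.

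Male libraries showed no such agreement between batches. In batch 1, 8 of the 10 differences were positive with a median of 0.18, and in batch 2, 9 of the 10 were negative with a median of −0.32. BomBc1, at 0.61 and 0.14, was positive in both. BomS2, at −0.16 and −0.48, and BomT2, at −0.71 and −0.89, were negative in both. With batch 2 alone in the fit, Dso1 remained called in females (edgeR adjusted p = 0.0185), Dso2 did not (1.74, edgeR adjusted p = 0.0528) and BomBc1 did not (0.95, edgeR adjusted p = 0.291). With the 2 shallow isolated female libraries left out instead, the lone isolated female library is assumed to vary like the libraries of the other groups. In that fit Dso1 was called (1.36, edgeR adjusted p = 0.0151), Dso2 was not (1.45, edgeR adjusted p = 0.353) and BomBc1 was not (1.69, edgeR adjusted p = 0.0571).

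**Figure D3:**
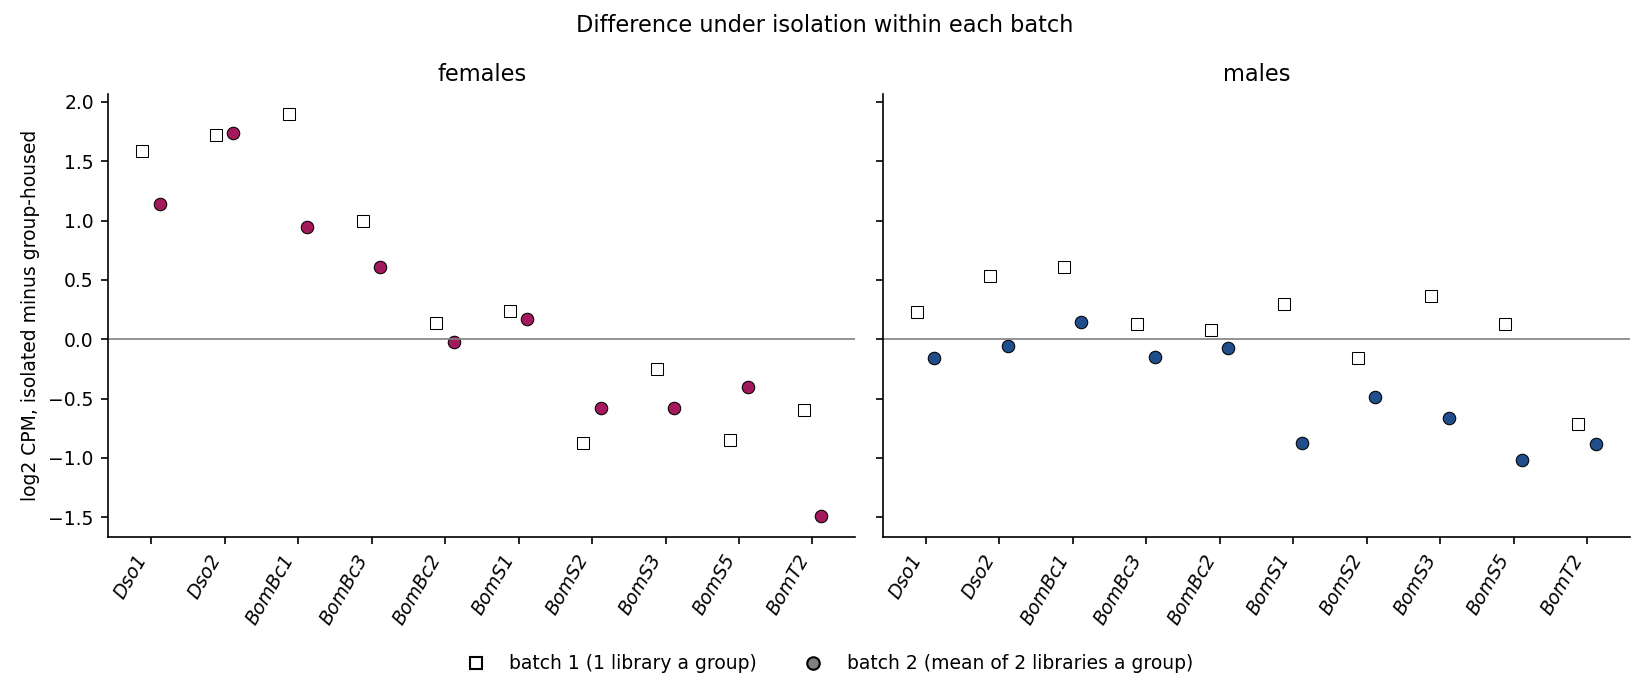
Difference of mean log2 CPM, isolated minus group-housed, within batch 1 (open squares, 1 library per group) and batch 2 (filled circles, 2 libraries per group), on a linear axis, for females and males. In females 9 of the 10 genes have the same sign in both batches, and in males 3 do.

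A set of 7 of the 10 genes belongs to a cluster of 10 Bomanin genes that spans 9237 bases of 2R, from 18381393 to 18390629. In order along the arm it holds BomT1, BomBc1, BomS1, BomS4, BomBc2, BomS2, BomS3, BomT2, BomS5 and BomS6. BomBc3 lies apart on 3R beside BomT3, and the Daisho pair lies elsewhere on 2R. BomBc1 and BomS1 are neighbours on opposite strands with 713 bases between them. In isolated females the first was at 2.47-fold and the second at 1.12-fold of its group-housed level.

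**Figure D4:**
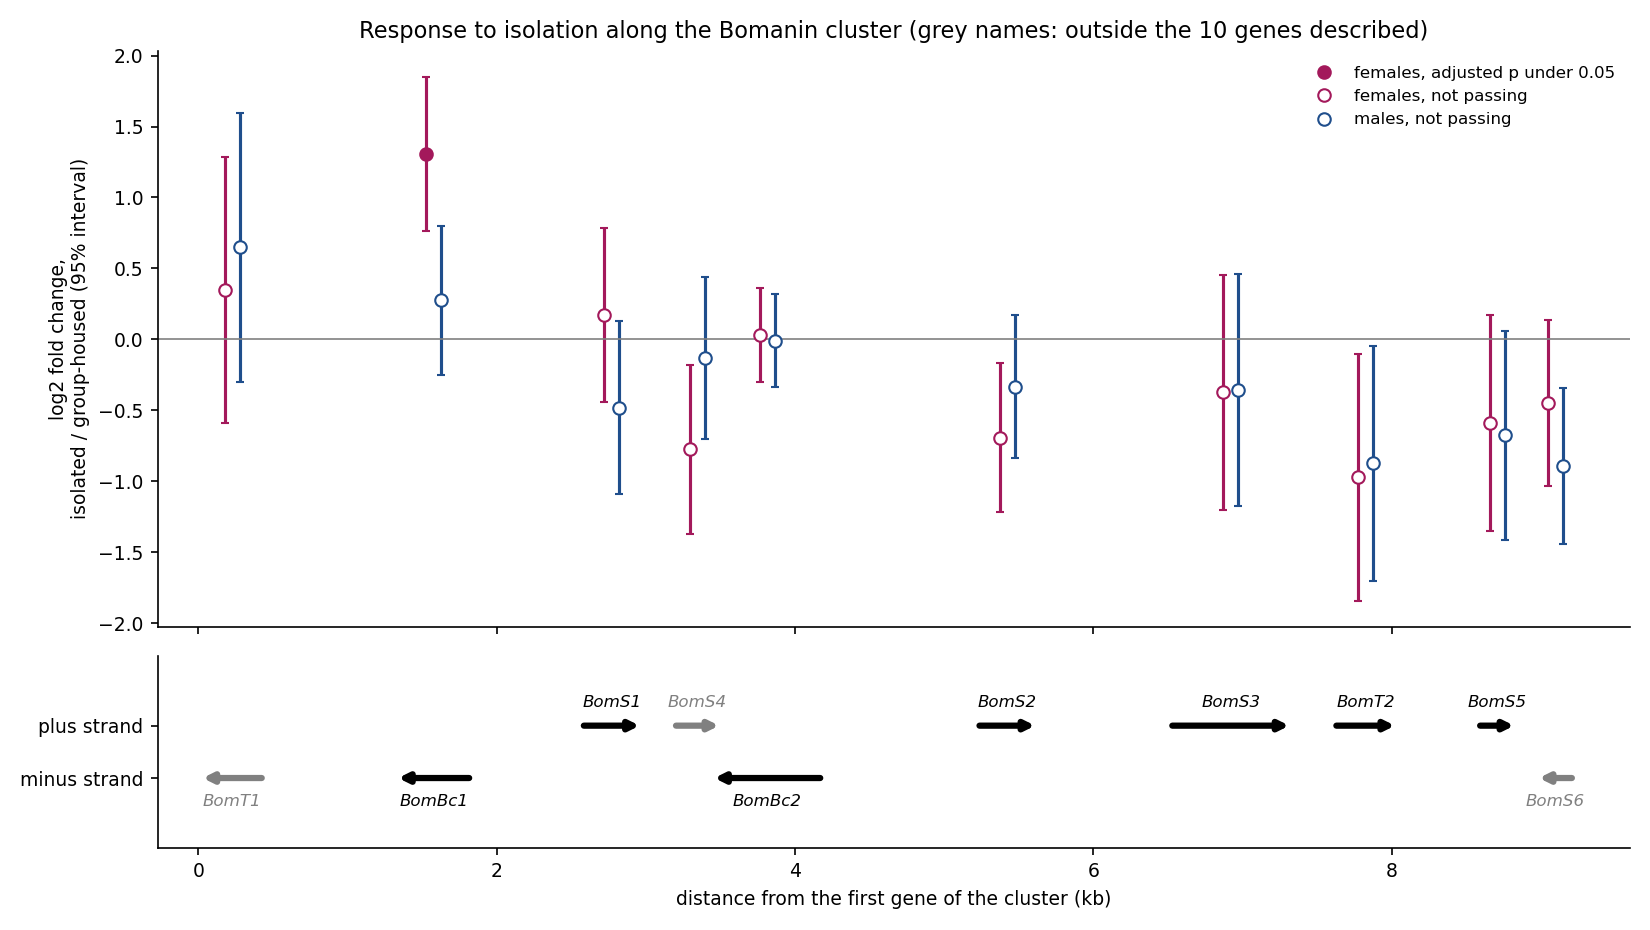
The Bomanin cluster on 2R, drawn to scale in kb from the start of its first gene. Above it stand the log2 fold changes, isolated against group-housed, with 95% intervals for females and males, and below it the genes by strand, with names in grey for the 3 cluster genes outside the 10 described. BomBc1 holds the 1 filled point, at 1.31, and the 4 genes of the 10 to the right of BomBc2 have negative values in both sexes.

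The number of BomBc1 reads per BomS1 read, a ratio within 1 library that does not depend on its scaling, was 0.273, 0.577 and 0.340 in group-housed and 0.881, 0.650 and 0.890 in isolated females. It was 0.532, 0.537 and 0.393 in group-housed and 0.668, 1.03 and 0.854 in isolated males. In both sexes the isolated libraries lay above the group-housed ones without overlap. Reads of both Daisho genes per read of the 5 short and tailed Bomanins were 1.34, 3.56 and 1.82 in group-housed and 5.10, 5.60 and 8.63 in isolated females. In males this ratio was 3.20, 2.63 and 3.20 under group housing and 3.50, 4.82 and 3.98 under isolation. Those ranges did not overlap in either sex. Both ratios were chosen after the values were seen and were given no test.

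**Figure D5:**
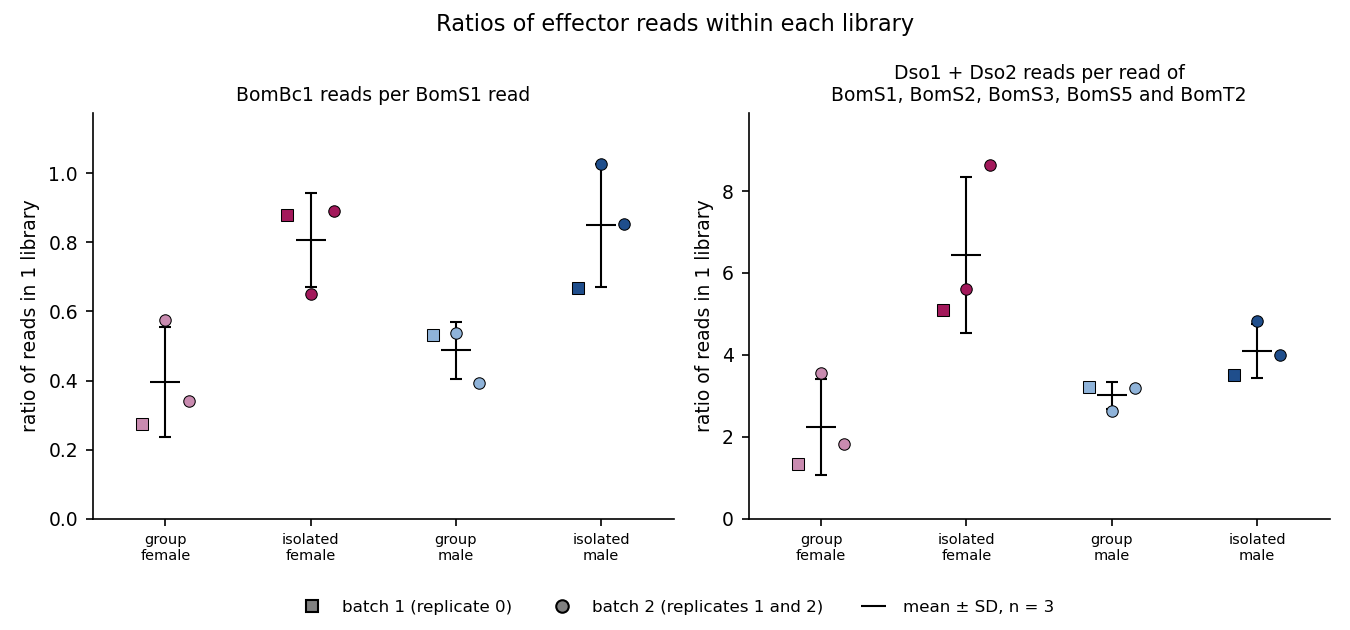
Ratio of reads within each library, by group, on linear axes that start at 0: BomBc1 reads per BomS1 read, and Daisho reads per read of BomS1, BomS2, BomS3, BomS5 and BomT2. Squares are batch 1, circles batch 2, and bars the mean and SD of 3 libraries. In each sex the isolated libraries lie above the group-housed ones in both panels.

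Summed over the 10 genes, levels relative to library totals were 556 ± 69.9 CPM in group-housed females, 833 ± 80.0 in isolated females, 529 ± 59.5 in group-housed males and 513 ± 66.9 in isolated males (SD, n = 3). The Daisho genes alone summed to 265 ± 62.4 CPM in group-housed and 558 ± 51.4 in isolated females. The 5 short and tailed Bomanins summed to 130 ± 33.1 and 92.1 ± 28.0 CPM in these groups, and to 93.4 ± 15.3 and 69.3 ± 11.4 in group-housed and isolated males. In TMM-scaled CPM, isolated female replicate 1 was the highest library for 5 of the 10 genes. Group-housed female replicate 0 was the lowest for 4 and the highest for 2. Part of this depended on the scaling. Relative to library totals, BomS1 was highest in group-housed female replicate 2 and BomBc1 in isolated female replicate 0. BomBc3 was then highest in group-housed female replicate 1 and BomS5 in group-housed female replicate 0.

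Across the 12 libraries the members did not follow 1 profile. Log2 CPM correlated with a Pearson r of 0.94 between Dso1 and Dso2, 0.89 between Dso1 and BomBc1, and 0.91 between Dso2 and BomBc1. BomS2 and BomT2 had 0.81, while BomT2 and Dso2 had −0.61. These are descriptions over libraries that share groups, batches and depth. Outside the 10 genes, those most like their mean profile were peg (0.92), babos (0.89), Drice (0.88), Ostgamma (0.87) and CG13912 (0.87), of 9800 genes compared. Those most like Dso1, chosen after the values were seen, were CG6067 at 0.97 and DNaseII at 0.96.

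The remaining Bomanin genes gave 0 calls among the 4 tested in either sex. BomS4 had −0.77 (SE 0.28, edgeR adjusted p = 0.191) in females and BomS6 −0.89 (SE 0.26, edgeR adjusted p = 0.774) in males. Bbd, a protein needed for short Bomanin function, had 0.32 (SE 0.15, edgeR adjusted p = 0.350) in females and 0.19 in males.

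Upstream in the Toll pathway, 1 of 15 tested genes of recognition and the protease cascade rose in females. Of all features, 3.26% were called higher in females, a share that applies to the other lists too. With TMM scaling all 15 had positive values with a median of 0.34, beside 47.6% of all features with positive values. Relative to library totals, the list summed to 780 to 1144 CPM in group-housed and 1000 to 1170 CPM in isolated females, which overlap. The 1 gene of the 15 that passed was PGRP-SD, a recognition protein for bacterial peptidoglycan, at 0.87 (SE 0.21, edgeR adjusted p = 0.0303). In males 0 of 15 passed, with a median of 0.11, and 14 of the 15 values were positive, beside 49.5% of all features. PGRP-SD had 0.95 (SE 0.21, edgeR adjusted p = 0.204) in males, and its female and male responses differed by −0.07 (SE 0.30). Of 18 ligand, receptor and signalling genes, spz, which encodes the Toll ligand Spaetzle, was the 1 that rose in females, at 0.54 (SE 0.14, edgeR adjusted p = 0.0373), and the median was 0.05. None passed in males, where spz had 0.03 (SE 0.13). Of 10 other Toll-dependent antifungal and short effectors, 1 rose in females, SPH93, a serine protease homologue, at 1.76 (SE 0.22, edgeR adjusted p = 0.000118), with a list median of 0.37. The male median was 0.47 with 0 calls, and SPH93 had 0.57 (SE 0.21, edgeR adjusted p = 1.00) in males. PGRP-SD, spz and SPH93 each share bases with an annotated gene of the opposite strand and are therefore uncertain.

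Effectors of the Imd pathway, the other main humoral immune pathway of flies, had 1 of 15 higher in females, where 3.26% of all features were. It was PGRP-SB1 at 0.64 (SE 0.14, edgeR adjusted p = 0.0146), and the list median was −0.12. PGRP-SB1 had 0.64 in males as well, where it did not pass (edgeR adjusted p = 0.194). In males the list median was 1.35 with 0 calls and 11 of 15 higher at an unadjusted p under 0.05. Of all features, 2.66% had such a p in males, in either direction. The median over all 10 Bomanin and Daisho genes was 0.10 in females, beside −0.12 for Imd effectors. In males it was −0.18, beside 1.35. Imd signalling genes gave 0 calls of 12 in both sexes, with medians of −0.07 and 0.06. JAK-STAT stress effectors gave 1 of 8, Tep2, at 1.03 in females (SE 0.16, edgeR adjusted p = 0.00114, also sharing bases with an opposite-strand gene) and none in males, where Tep2 had 0.28.

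Markers of fat body, whose cells secrete these peptides, moved as well in females. In females 8 of 17 tested fat body markers rose, with a median of 0.87, where 3.26% of all features were called higher. Those 8 included Lsp1alpha at 4.45 (SE 0.18) and Mtp at 1.18 (SE 0.15). None of the 17 passed in males, where the median was −0.08. The summed level of the fat body list did not overlap between isolated and group-housed females. Fbp2 and Lsp1gamma were at 0 in some libraries. Hemocyte markers gave 1 of 15 in females, eater, at 0.77 (SE 0.19, edgeR adjusted p = 0.0316), with a median of 0.40 in females and −0.08 in males. Their sum ranged from 2114 to 5516 CPM of library totals over all libraries. It overlapped between group-housed (2372 to 5516 CPM) and isolated females (3469 to 5289 CPM). In each group the sum was highest in replicate 0, the batch 1 library. The part of either cell type in the Daisho and BomBc1 rise was not tested. In bulk RNA of whole heads, a larger number of cells of a type and more RNA per cell cannot be told apart.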

How the data were processed

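PolyA RNA of fly heads was sequenced in 12 libraries. The values the authors deposited are raw counts of reads for each feature. Tools listed in the submitters' processing notes are HTSeq 2.0.5, STAR 2.7.10b, edgeR 4.4.1, Picard 2.27.5 and R 4.4.0. Build, annotation and strand setting: not given in the sources used here. Count lines naming no gene (10.2% to 13.2% of a column, among them reads aligned to several places, as reads that fit several short Bomanins would be) were left out, as was 1 column tied to no sample.

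Features were kept by filterByExpr (minimum count 10, total 15). One edgeR 4.0.16 quasi-likelihood model (R 4.3.3, limma 3.58.1) with 4 group means and batch was fitted robustly to all 12 libraries with TMM scaling, with 7 residual degrees of freedom, and tested on simulated data. The SE is the log2 fold change over the square root of F. Log2 CPM used a prior count of 2. Sums over genes are relative to library totals without TMM. Counting error limits the genes of low counts.

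The members and the 13 gene lists were chosen with earlier results of these data known. All members are described. Of each list, up to 4 called genes with the smallest p could be named, and the 5 genes most like the members' mean profile were named. BomS4, BomS6 and Bbd were named after their values were seen. Alternatives were other scalings and filters, limma-voom, DESeq2 1.42.0, other batch terms, fewer libraries and each library left out. Each library was counted as 1 replicate. No 2 replicates agreed within counting error (chi-square over its degrees of freedom was 4.48 to 65.7), which does not show that the pools came from separate cultures. Gene positions come from the BDGP6.54 annotation, which holds 17816 of the 17856 identifiers.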

Additional observations from a re-analysis of the deposited data

Results flagged for a closer look

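Dso1 differed between the sexes in its response to isolation. The female response minus the male response was 1.31 log2 units (SE 0.22, edgeR adjusted p = 0.00679), from a direct test of the difference. It was the 1 gene of the 10 for which that test passed with edgeR. All 3 isolated female libraries lay above the other 9 libraries for Dso1. The same held for Dso2 and BomBc1, which did not pass that test with edgeR. The share of all features with such a separation was not computed. DESeq2 called Dso2 as well (adjusted p = 0.0156). The call for Dso1 was lost in 3 of 12 other settings, among them library totals and batch 2 alone (edgeR adjusted p = 0.259).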

How the results depend on the processing

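Of the 10 genes, 3 were called in females. That count was 1 with batch 2 alone and 1 when isolated females were replicate 0 only, and 2 to 4 with 1 library left out. The difference between the sexes, 1 call, gave 0 with library totals, batch 2 alone or isolated female replicate 0 alone, and 2 with DESeq2. The average over the sexes, 3 calls, gave 1 with library totals or no batch term, 0 with batch 2 alone or isolated female replicate 0 alone, and 1 to 3 with 1 library left out. It gave 4 with DESeq2 or with no filter, BomT2 added as lower. Between group-housed sexes, 0 calls became 1 with limma-voom. Between isolated sexes, 2 calls became 1 with library totals, batch 2 alone or isolated female replicate 0 alone, 4 with no filter or DESeq2, and 1 to 4 with 1 library left out. The smaller subsets hold fewer samples; otherwise the cause was not tested. Library totals shifted the female median of all features to −0.23 from −0.02. Dso1 stayed called in females under all 13 other settings (with isolated female replicate 0 alone, the p rests on the spread of the other groups) and 12 of 12 fits with 1 library left out. The replicate block in place of the batch gave 4 calls in females, BomBc3 added at an adjusted p of 0.0285, and changed no other count. With each gene centred on its group mean, same-numbered libraries of different groups correlated at −0.18 to 0.51. Those of replicate 0, at 0.23 to 0.51, share the batch as well as the number. Differences of replicate 1 minus replicate 2 within batch 2 correlated at −0.19 to 0.29 between groups. Numbers were not taken to pair samples.

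Signs turned for values near 0, with the cause not tested. In females BomBc2 became −0.079 with upper-quartile factors, −0.19 with library totals and −0.036 with batch 2 alone, with −0.077 to 0.13 over libraries left out, and BomS1 became −0.020 with library totals and ranged from −0.047 to 0.44. In males BomBc2 became 0.042 with library totals, 0.012 with no filter and 0.0063 with isolated female replicate 0 alone, and ranged from −0.17 to 0.11. BomBc3 became 0.027 with library totals and 2.51e-05 with no filter, and ranged from −0.15 to 0.17. Dso1 became 0.011 with library totals, and ranged from −0.17 to 0.055. Dso2 became −0.050 with batch 2 alone, and ranged from −0.14 to 0.42. Between isolated sexes BomBc2 became −0.084 with library totals, and BomT2 −0.23 with batch 2 alone and −0.22 to 0.69 over libraries left out.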

Other observations

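Under group housing, Imd effectors differed between the sexes where the Bomanins and Daisho genes did not pass. Of 15 tested Imd effector genes, 11 were higher in group-housed females than in group-housed males, with a list median of 2.52. Over all 10238 features, 153 were called higher in that direction. AttA, an attacin, differed by 2.17 and DptB, a diptericin, by 3.11 (edgeR adjusted p = 6.48e-05 and 0.000121); DptB overlaps a gene on the other strand in the annotation. The list summed to 837 ± 119 CPM of library totals in group-housed females and 207 ± 60.1 in group-housed males (SD, n = 3). The 10 Bomanin and Daisho genes summed to 556 ± 69.9 and 529 ± 59.5 CPM in the same groups.

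Lists of male accessory gland and testis genes and of female ovary genes were at low levels in heads. The male list summed to 275 CPM of library totals in group-housed male replicate 0, to 13.8 and 29.4 CPM in group-housed male replicates 1 and 2, and to at most 6.59 in the other groups. Of its 3 tested genes 2 passed as lower in isolated males, where 0.0781% of all features passed in either direction. That count of 2 includes the library at 275 CPM. Ovary genes summed to 160 CPM in 1 library, group-housed female replicate 1, and to at most 43.4 in the others, with 0 calls of 4 tested in either sex.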
